A study of Mus musculus with 4 samples.

Results

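The oligodendrocyte lineage progression genes are 10 genes, Pdgfra, Cspg4, Gpr17, Bmp4, Enpp6, Bcas1, Itpr2, Olig1, Olig2 and 9630013A20Rik, whose transcripts mark the steps from oligodendrocyte precursor to myelinating cell. They were chosen by symbol, and all 10 were found in each of the 4 libraries, among 40091 genes listed in at least 1 library. The libraries hold single-nucleus RNA from the thalamus of wild-type C57BL6 mice aged 7 to 8 weeks, each pooled from 3 mice. Mice of the NS group (2 libraries) received 10 nl of saline in the right VPM and VPL, the ventral posterior medial and lateral nuclei. Mice of the COL group (2 libraries) received there Coll IV, a collagenase that makes vessels bleed, at 0.01 U per 10 nl. Tissue was taken 7 days after the injection. A library is a pool, so the spread between the 2 libraries of a group does not show the spread between mice, and the injected agent is the only labelled difference between the groups.

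Oligodendrocytes are the myelin-forming cells of the central nervous system. They arise from dividing precursors that depend on platelet-derived growth factor, pass through a short committed, premyelinating state, and then switch on the myelin genes. The committed state is known for a set of transcripts that are switched on and off again, among them those of the receptor Gpr17, the ligand Bmp4 and the membrane enzyme Enpp6, while the transcription factors Olig1 and Olig2 accompany the whole lineage. Cells of this state are rare in the adult brain, where they show that new oligodendrocytes are being made.

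Nuclei were placed in 3 stages by marker lists that hold none of the 10 genes. The lists comprised 10 measured precursor markers (such as Vcan, Ptprz1 and Pcdh15), 12 of committed precursors (such as Neu4, Tns3 and Fyn) and 15 of mature oligodendrocytes (such as Mog and Mag). Of 32291 nuclei, 1170 were placed as precursors, 144 as committed precursors and 8576 as mature oligodendrocytes. The 4 libraries held 356, 360, 186 and 268 precursors, 43, 41, 28 and 32 committed precursors, and 2074, 3480, 1491 and 1531 mature oligodendrocytes. Values for the 4 libraries are given throughout in the order NS replicate 1, NS replicate 2, COL replicate 1 and COL replicate 2. Another 94 nuclei that carried precursor and mature markers together, as a droplet with a pair of nuclei would, were set apart. To follow the genes in finer steps, precursors were divided into those below and above the committed threshold, called low-score and high-score here, and committed precursors into early (more precursor than mature score) and late.

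**Figure D1:**
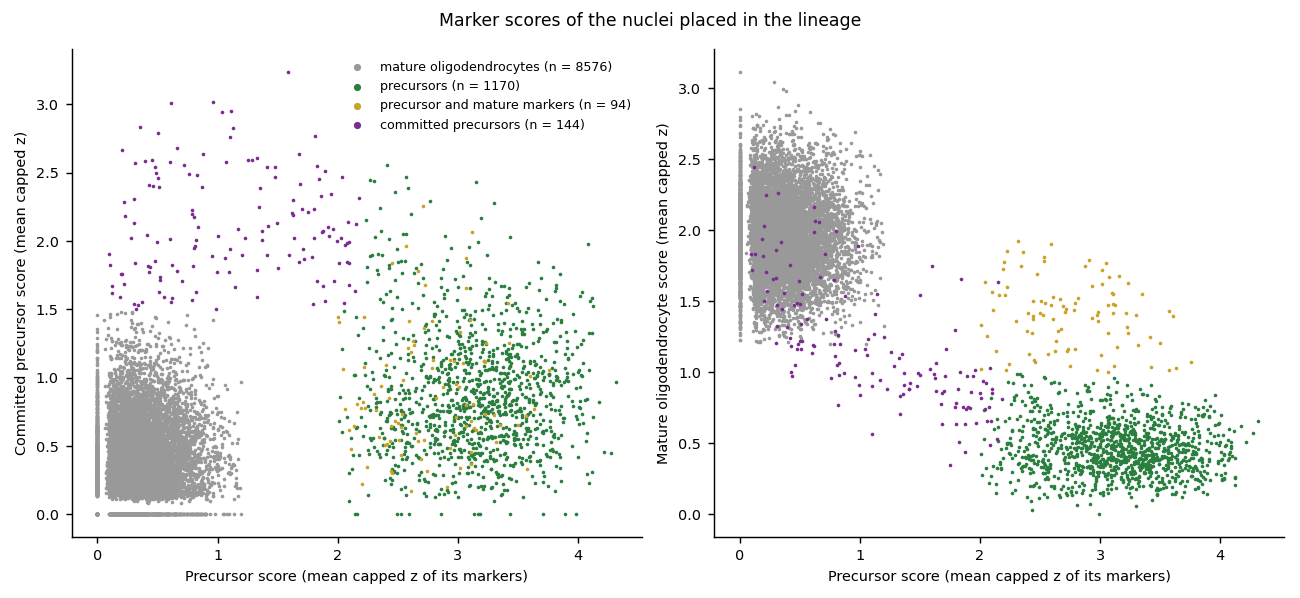
Each point is 1 nucleus, placed by its precursor score on the x axis and by its committed score (left) or mature score (right) on the y axis, where a score is the mean over the stage's markers of the log level divided by its SD, capped at 5. The 144 committed precursors lie between the 1170 precursors and the 8576 mature oligodendrocytes in the precursor score, and some precursors reach the same committed scores.

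The depth differed between the groups. The libraries held 77557870, 68746459, 69513636 and 69511080 UMIs (unique molecular identifiers, counted molecules), and the median precursor had 4767.5, 4171, 7075.5 and 7773.5 UMIs. Levels are therefore given as CPM, the UMIs of a gene summed over the nuclei of a stage in 1 library and scaled to a common total, so that a level is a share of the stage's RNA. Free RNA in the droplets can leave a low level of a gene in other cell types. It was not estimated, and neurons, which should lack most of these transcripts, were taken as the reference for it. Pairs of nuclei in a droplet and low expression were not told apart from free RNA. The share of UMIs taken by macrophage and astrocyte markers moved with the group in all 3 stages, but not that of every cell type. Neuron markers overlapped between the groups in precursors (4978, 4479, 6038 and 4976 CPM). Microglia markers overlapped in committed precursors and mature oligodendrocytes. The 8 macrophage markers summed to 4.13, 4.76, 59.6 and 109 CPM in precursors, with Cd163 at 0, to 2.99, 0, 38.4 and 93.8 CPM in committed precursors, with Mrc1, Cd163 and Ms4a7 at 0, and to 2.31, 5.02, 42.0 and 113 CPM in mature oligodendrocytes. The 10 astrocyte markers were lower in COL, with 842, 775, 592 and 504 CPM in precursors, 170, 294, 66.2 and 141 CPM in committed precursors and 433, 362, 224 and 252 CPM in mature oligodendrocytes. The part of these markers in the changes below was not tested. Some barcodes, 102 in all, occurred in more than 1 library.

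Along the lineage the 10 genes fell into 3 patterns, and each is described here with no test, since the stages were set on the same nuclei. Pdgfra and Cspg4 were highest in precursors. Gpr17, Bmp4, Enpp6, Bcas1, Itpr2 and 9630013A20Rik had their highest mean level over the 4 libraries in committed precursors, which makes 6 of 10 genes. For Gpr17 this did not hold in NS replicate 2, in which precursors had 71.5 CPM and committed precursors 46.9 CPM. With stages from clusters Gpr17 was highest in precursors and Olig1 in committed precursors. Olig1 and Olig2 differed least between the stages.

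**Figure D2:**
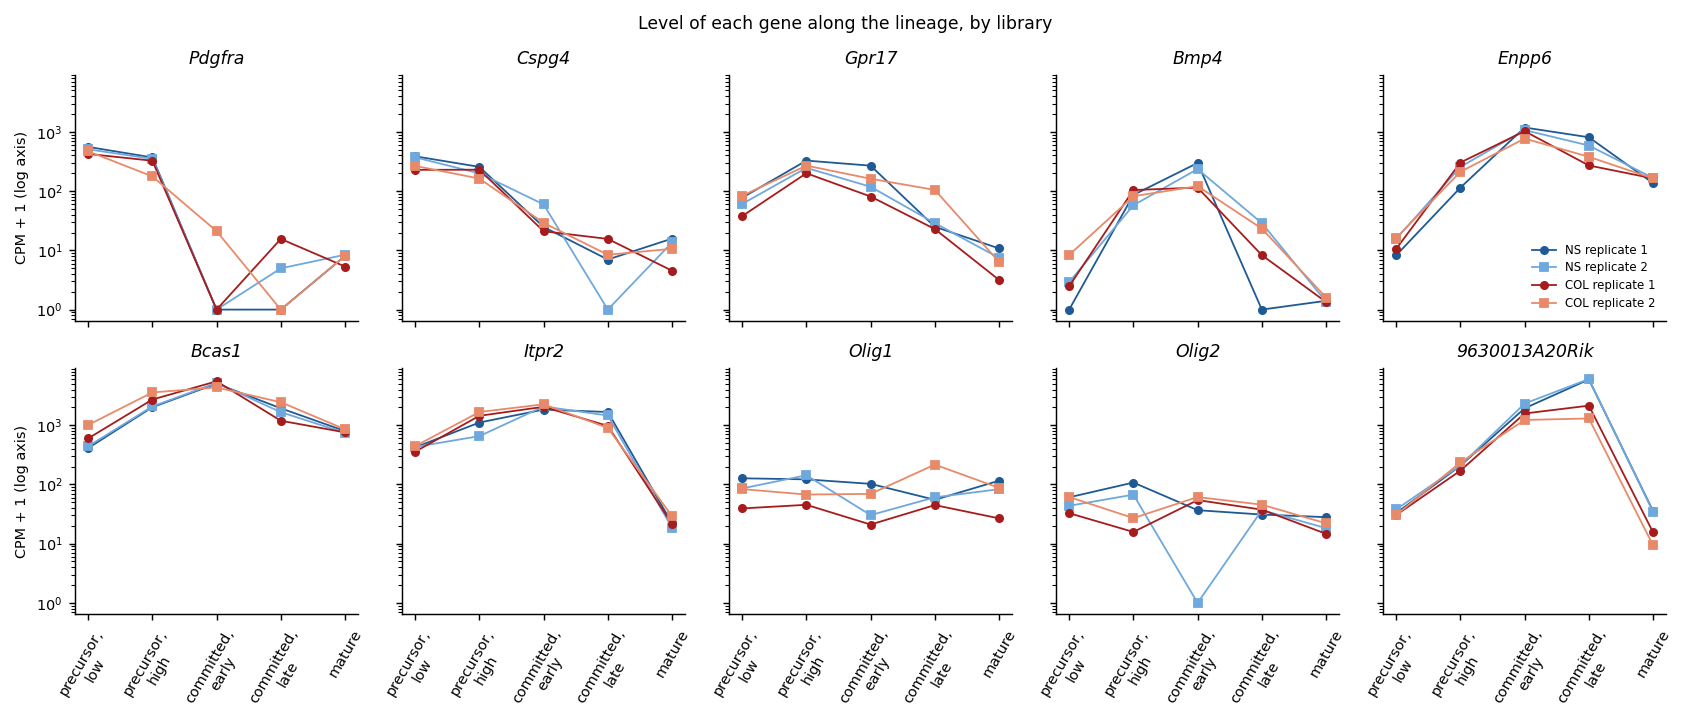
The level of each gene, as CPM + 1 on a log axis, is drawn for low-score and high-score precursors, early and late committed precursors and mature oligodendrocytes, with 1 line for each library. Pdgfra and Cspg4 drop after the precursors, Bmp4, Enpp6, Bcas1 and Itpr2 peak in early committed precursors in most libraries, and 9630013A20Rik peaks in late ones, where the NS lines lie above the COL lines.

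Pdgfra encodes the receptor through which platelet-derived growth factor keeps precursors alive and dividing. Its level in precursors was 544, 497, 415 and 427 CPM, or 2.96, 2.32, 3.33 and 3.80 UMIs per nucleus. In committed precursors it had nearly gone, with 0, 1, 2 and 5 UMIs over all nuclei of the 4 libraries. High-score precursors held 369, 350, 325 and 176 CPM, and 53.2% of them in NS and 49.2% in COL had a UMI of Pdgfra. The transcript was thus still found in part of the nuclei that already carried committed markers. In mature oligodendrocytes 7.06, 7.44, 4.33 and 7.05 CPM were left, against 3.57, 2.99, 1.51 and 3.93 CPM in neurons. Neurons have more UMIs each (a median of 11366 against 3756.5), and per nucleus mature oligodendrocytes held 0.0251, 0.0239, 0.0255 and 0.0464 UMIs of Pdgfra, below the 0.0410, 0.0320, 0.0267 and 0.0652 of neurons, so the level was above this reference in CPM only. Outside the lineage, pericytes and fibroblasts also carried Pdgfra, at 339, 277, 317 and 266 CPM.

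Cspg4 encodes NG2, the chondroitin sulphate proteoglycan by which precursors are usually stained. It stood at 377, 360, 228 and 251 CPM in precursors and at 14.9, 12.5, 17.4 and 20.8 CPM in committed precursors. The NS and COL precursors did not overlap in this gene. The pericyte and fibroblast nuclei, of which at most 30 were found in a library, held 220, 104, 61.7 and 124 CPM of Cspg4.

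Gpr17 encodes a G protein-coupled receptor that marks cells about to leave the precursor state and must be shut off before myelination. It was at 76.3, 59.7, 36.9 and 82.4 CPM in low-score precursors and stood at 327, 246, 199 and 269 CPM in high-score precursors. Early committed precursors had 268, 117, 80.1 and 161 CPM, and late ones 24.0, 27.8, 21.9 and 104 CPM. Mature oligodendrocytes held 9.77, 6.45, 2.16 and 5.36 CPM, above the 3.88, 2.52, 0.797 and 3.73 CPM of neurons. Per nucleus the order was the reverse, with 0.0347, 0.0207, 0.0127 and 0.0353 UMIs in mature oligodendrocytes and 0.0446, 0.0270, 0.0141 and 0.0619 in neurons. In CPM, Gpr17 was thus the first of the transient genes to peak along the scores. The nuclei were few, with 25, 22, 19 and 42 high-score precursors and 23, 10, 15 and 21 early committed ones. In NS, 66.0% of high-score and 66.7% of early committed nuclei had a UMI of Gpr17, so this share showed no such order. In COL the shares were 67.2 and 58.3%. Of 364 precursors with a UMI of Gpr17, 271 (74.5%) also had one of Pdgfra, below the 81.3% of all precursors that did. Of 60 such committed precursors 2 (3.33%) had one, beside 4.17% of all committed precursors. The gene (chromosome 18, 31942997 to 31949636, minus strand, GRCm38) overlaps Lims2, a committed marker on the other strand, and reads of the pair can be told apart only if the counting used the strand.

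Bmp4 encodes a bone morphogenetic protein, a secreted ligand known to hold back oligodendrocyte differentiation. It was nearly absent from low-score precursors, with 0, 3, 2 and 15 UMIs, and from mature oligodendrocytes, with 3, 4, 3 and 6 UMIs. High-score precursors held 85.3, 56.8, 103 and 80.9 CPM and early committed precursors 298, 235, 113.5 and 120.5 CPM. In late committed precursors Bmp4 was at 0, 27.8, 7.30 and 22.3 CPM, which rests on 0, 7, 1 and 3 UMIs. The transcript was thus mostly limited to a short stretch of the lineage. Of the 50 committed precursors with a UMI of Bmp4, 48 (96.0%) also had one of Enpp6, beside 79.9% of all committed precursors. Neurons held 0.444, 0.490, 0.280 and 0.651 CPM.

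Enpp6 encodes a choline phosphodiesterase of the membrane that is used to find newly forming oligodendrocytes. Its level went from 7.24, 14.6, 9.58 and 15.2 CPM in low-score precursors to 1185, 1071, 1028 and 771 CPM in early committed precursors. Late committed precursors held 810, 588, 270.0 and 378.5 CPM. Mature oligodendrocytes kept 135, 166, 163 and 163 CPM, well above the 5.56, 7.89, 3.83 and 7.69 CPM of neurons. Because mature nuclei are many, they held 53.4, 66.2, 67.5 and 62.4% of all UMIs of Enpp6 in their library. The gene lies at chromosome 8, 46986887 to 47096762, on the plus strand.

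Bcas1 encodes a brain protein of the early myelinating oligodendrocyte. It was already present in low-score precursors, at 409, 439, 596 and 1007 CPM, and reached 5039, 5180, 5508 and 4338 CPM in early committed precursors. It was then lower, at 1927, 1660, 1190 and 2442 CPM in late ones and at 796, 743, 755 and 853 CPM in mature oligodendrocytes. Neurons held 17.0, 19.1, 17.5 and 30.7 CPM. With each nucleus thinned to 1000 UMIs, a UMI of Bcas1 was found in 41.1% of precursors, 84.0% of committed precursors, 52.0% of mature oligodendrocytes and 1.87% of neurons. The shares without thinning were 81.5, 97.9, 88.7 and 18.8%.

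Itpr2 encodes a receptor channel that releases calcium from the endoplasmic reticulum. It was at 471, 442, 454 and 620 CPM in precursors and at 1752, 1588, 1531 and 1777 CPM in committed precursors. In mature oligodendrocytes it was at 21.0, 17.5, 20.4 and 28.1 CPM, the same range as the 20.6, 19.9, 22.9 and 27.4 CPM of neurons. Itpr2 was not limited to the lineage, since astrocytes held 294, 299.5, 313.5 and 337 CPM and microglia 435, 414, 310 and 298 CPM.

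The gene 9630013A20Rik, which RefSeq also lists as lncOL1, makes a long non-coding RNA of the oligodendrocyte lineage. It went from 31.8, 36.9, 29.5 and 29.4 CPM in low-score precursors to 206, 208, 170 and 234 CPM in high-score precursors. Early committed precursors held 1930, 2318, 1576 and 1225 CPM and late ones 5924, 6017, 2138 and 1299 CPM. Mature oligodendrocytes had 34.3, 33.3, 14.5 and 8.34 CPM, against 11.8, 11.1, 2.18 and 4.64 CPM in neurons. In UMIs per nucleus these were 0.122, 0.107, 0.0852 and 0.0549 in mature oligodendrocytes and 0.136, 0.119, 0.0385 and 0.0768 in neurons. Mature nuclei were thus above neurons, which have more UMIs each, in COL replicate 1 alone. Astrocytes and microglia were nearer in depth, with medians of 3797 and 3323.5 UMIs against 3756.5 in mature oligodendrocytes. Astrocytes held 0.0564, 0.0721, 0.0458 and 0.0211 UMIs per nucleus and microglia 0.0419, 0.0293, 0.0425 and 0.0403, below mature nuclei in every library. Although committed precursors were only 43, 41, 28 and 32 nuclei, they held 51.8, 59.4, 54.4 and 40.1% of all UMIs of this gene in their library. The gene lies at chromosome 14, 84458639 to 84476424, on the minus strand. GENCODE M21 gives it the biotype antisense, because it lies inside Pcdh17, which is on the plus strand.

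Of the 10 genes, 7 had a promoter in the RefSeq table (GRCm38.p6) that could be printed. The sequences of Enpp6 and 9630013A20Rik are shown, since both were low in precursors and high in committed ones. Each is the 250 bases before the start, from 5′ to 3′ on the gene's strand, at chr8:46986637-46986886 for Enpp6 and at chr14:84476425-84476674 for 9630013A20Rik. Capitals mark the letters ACAANG, found on either strand, with N for any base. This pattern is looser than the core bound by SOX proteins, so a match need not be such a core.
Enpp6: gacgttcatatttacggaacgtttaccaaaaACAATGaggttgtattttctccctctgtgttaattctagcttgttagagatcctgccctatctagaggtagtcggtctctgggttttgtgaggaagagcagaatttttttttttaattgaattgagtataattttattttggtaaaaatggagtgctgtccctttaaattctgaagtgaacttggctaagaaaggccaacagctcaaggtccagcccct
9630013A20Rik: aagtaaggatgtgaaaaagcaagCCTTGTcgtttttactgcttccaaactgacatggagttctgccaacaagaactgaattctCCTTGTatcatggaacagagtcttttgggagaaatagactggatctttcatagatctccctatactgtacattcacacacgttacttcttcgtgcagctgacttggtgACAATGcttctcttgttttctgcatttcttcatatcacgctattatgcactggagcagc
Enpp6 had 1 match and 9630013A20Rik had 3. At least 1 match was present in 36.3% of the 32851 promoter windows of this length. Pdgfra and Olig2 also had 1 match each, and Cspg4, Bmp4 and Itpr2 had none. The E-box letters CANNTG, which factors such as Olig2 can bind, occurred 3 times in the window of Bmp4, once each in those of Pdgfra and 9630013A20Rik, and in 66.2% of all windows. A match is a run of letters and was not tested for binding.

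Olig1 and Olig2 encode the basic helix-loop-helix factors that define the lineage. Olig2 was at 63.0, 44.1, 30.2 and 55.4 CPM in precursors, 32.9, 28.1, 45.3 and 54.7 CPM in committed precursors and 27.0, 17.3, 13.7 and 21.0 CPM in mature oligodendrocytes. Olig1 was at 126, 88.1, 38.9 and 80.1 CPM in precursors, 77.7, 53.1, 31.4 and 120 CPM in committed precursors and 115, 82.1, 25.7 and 86.4 CPM in mature oligodendrocytes. COL replicate 1 was the lowest library for Olig1 in each stage, and it was also the lowest in neurons (16.8, 15.8, 4.70 and 14.0 CPM), which were taken as the reference for free RNA. The low level of Olig1 in COL replicate 1 was thus shared by the 3 stages and neurons.

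To name genes of like pattern, log2(CPM + 1) was correlated over 31 sums of a cell class in a library, among 13659 genes. The sums share libraries and depth, so Pearson's r is a description only. Nearest to Gpr17 were Neu4 (0.92, itself a committed marker of the gate), Sema3d (0.88) and Inava (0.88). Nearest to Enpp6 were Bfsp2 (0.94), Aatk (0.90) and Atp10b (0.90). Nearest to 9630013A20Rik were Rassf10 (0.91), Gm26834 (0.91) and Dct (0.89).

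The first comparison asked whether the haemorrhage changed how many nuclei stood at each stage. Precursors made up 3.68, 3.45, 3.14 and 4.28% of nuclei and mature oligodendrocytes 21.4, 33.4, 25.1 and 24.4%, and in both the groups overlapped. Committed precursors made up 0.445, 0.393, 0.472 and 0.511%, with exact 95% binomial intervals of 0.322 to 0.598, 0.282 to 0.533, 0.314 to 0.682 and 0.350 to 0.720%, which overlap and cover counting error only. The mean difference between COL and NS for committed precursors was 0.0725 percentage points (exact permutation test, two-sided p = 0.333, the smallest that 2 against 2 libraries allow). It turned to -0.0186 points under a stricter gate and to -0.198 points with stages from clusters, so no direction can be given. For precursors the difference was 0.140 points (exact permutation p = 1.0) and for mature oligodendrocytes -2.63 points (exact permutation p = 1.0).

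Shares within the stages were compared next. Precursors with 2 or more of 6 cycling markers made up 1.40, 1.94, 16.1 and 16.0% of precursors (exact permutation p = 0.333, the smallest possible). High-score precursors made up 7.02, 6.11, 10.2 and 15.7% of precursors. Of the committed precursors 46.5, 75.6, 46.4 and 34.4% were late. The first 2 of these shares were higher in both COL libraries than in both NS libraries, and the last overlapped between the groups. These shares were not compared at equal depth, and the median precursor had more UMIs in COL, as given above.

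In precursors, Bcas1 and Bmp4 were higher and Cspg4 was lower in the COL group, while the other 7 genes did not pass the test. Among 12751 genes tested in precursors, 16.6% passed, 7.51% higher and 9.10% lower in COL, by edgeR's quasi-likelihood test at an adjusted p of 0.05, so with 2 higher and 1 lower of 10 the members are not set apart from the background by their count. Bcas1 went from 525.5 and 541 CPM to 788 and 1379 CPM, which was 2.86 and 2.52 UMIs per nucleus against 6.32 and 12.3. The groups did not overlap, and COL replicate 2 lay well above COL replicate 1. The log2 fold change was 1.09 ± 0.21 (SE, edgeR adjusted p = 0.0044, n = 2 libraries per group). All 14 alternative settings kept the call, with log2 fold changes from 0.65, without COL replicate 2, to 1.40.

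Bcas1 was also higher in low-score precursors alone, a subset chosen after seeing the data (log2 fold change 0.96, edgeR adjusted p = 0.0026). Without the dividing nuclei it was 1.29 (edgeR adjusted p = 0.0032). The 15 mature markers summed to 1667, 2158, 1283 and 2430 CPM in precursors and overlapped between the groups. The 12 committed markers summed to 1409, 1439, 1744 and 2175 CPM and the 6 cycling markers to 56.3, 51.2, 410.2 and 298 CPM, both higher in COL. The part of these markers in the difference of Bcas1 was not tested. The level of Bcas1 in neurons was between 17.0 and 30.7 CPM.

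Bmp4 in precursors was at 6.20, 5.36, 10.7 and 18.03 CPM, which rests on 12, 9, 16 and 43 UMIs. The log2 fold change was 1.42 ± 0.41 (SE, edgeR adjusted p = 0.0316). The call was lost in 6 of 13 settings. These include fits that leave 1 library in a group, for which the other group's pair alone gives the spread, namely without NS replicate 1 (edgeR adjusted p = 0.177), without NS replicate 2 (0.128) and without COL replicate 2 (0.259), and DESeq2 gave an adjusted p of 0.325 with a log2 fold change of 1.41. The fold change was as large without NS replicate 1 (1.46) and NS replicate 2 (1.36), and 0.97 without COL replicate 2. Bmp4 stood at 85.3, 56.8, 103 and 80.9 CPM in high-score precursors and at 0, 1.91, 1.47 and 7.36 CPM in low-score ones, and the groups overlapped in both. The part of the larger share of high-score nuclei in COL was not tested.

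Cspg4 in precursors fell by 0.54 ± 0.15 on the log2 scale (SE, edgeR adjusted p = 0.0260), from 377 and 360 to 228 and 251 CPM. UMIs per nucleus were 2.05, 1.68, 1.83 and 2.23 and overlapped, so the fall is in the share of each nucleus's RNA, in a group whose nuclei had more UMIs. In low-score precursors alone it fell by 0.57 (edgeR adjusted p = 0.0117). It no longer passed without NS replicate 1 (edgeR adjusted p = 0.109) or NS replicate 2 (0.227), fits whose spread comes from the COL pair alone, nor without the dividing nuclei (0.0695) and with DESeq2 (0.0586), while the log2 fold change in these settings was between -0.58 and -0.47. Pdgfra, the other precursor marker, had a log2 fold change of -0.23 ± 0.15 (edgeR adjusted p = 0.338).

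**Figure D3:**
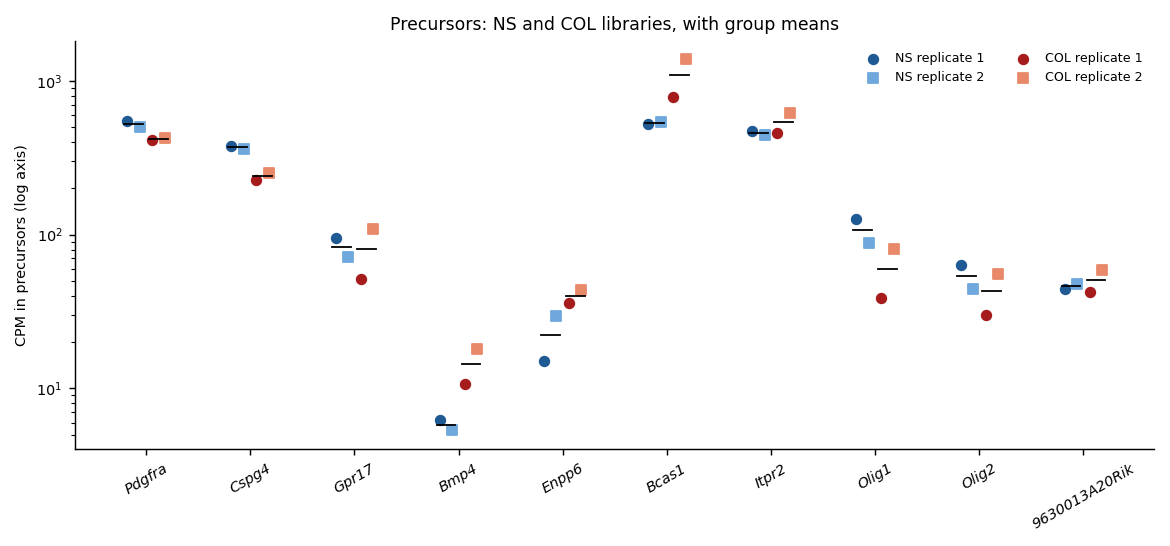
The points are the level of each gene in precursors in CPM (log axis), with 1 point for each library and a bar at the mean of each group of 2. Both COL points lie above both NS points for Bcas1, Bmp4 and Enpp6 and below them for Pdgfra, Cspg4 and Olig1.

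Enpp6 and Olig1 lay near the threshold in precursors. Enpp6 was at 14.99, 29.8, 36.2 and 43.6 CPM, with a log2 fold change of 0.93 ± 0.30 (SE, edgeR adjusted p = 0.0518), and it passed in 7 of 14 other settings. Without NS replicate 1 the log2 fold change was 0.44 (edgeR adjusted p = 0.457) and without NS replicate 2 it was 1.55 (0.0012). In low-score precursors alone its log2 fold change was 0.28 (edgeR adjusted p = 0.719). Olig1 had a log2 fold change of -0.73 ± 0.25 (edgeR adjusted p = 0.0607) and carried the low level of COL replicate 1 noted above. Itpr2 (0.31 ± 0.17), Olig2 (-0.22 ± 0.25), Gpr17 (0.06 ± 0.25) and 9630013A20Rik (0.23 ± 0.21) had edgeR adjusted p-values between 0.224 and 0.901.

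In committed precursors, 9630013A20Rik was the only member to pass the test, and it was lower in COL. Of the 10 genes 8 passed the filter on low counts (Pdgfra and Cspg4 did not), and of the 5340 genes tested 3.78% passed, 1.5% lower and 2.28% higher in COL. The level went from 3919 and 5229 CPM to 1844 and 1251 CPM, or from 30.5 and 40.8 to 18.9 and 15 UMIs per nucleus, although the COL nuclei had more UMIs each. The log2 fold change was -1.66 ± 0.33 (SE, edgeR adjusted p = 0.0164, n = 2 libraries per group).

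The late committed precursors of the 2 NS libraries were at 5924 and 6017 CPM, and those of the COL libraries were at 2138 and 1299 CPM. In early ones the values were 1930 and 2318 against 1576 and 1225 CPM, a smaller gap. In CPM the COL values were below the NS values in both parts of the stage. Per nucleus, late ones held 49.35, 48.87, 22.5 and 15.9 UMIs. Early ones held 14.1, 15.8, 15.7 and 14.5 UMIs per nucleus, so there the groups overlapped and the fall was in CPM only. These libraries held 20, 31, 13 and 11 late and 23, 10, 15 and 21 early nuclei, too few for a test of each part. In the late nuclei Itpr2 (1669, 1458, 971 and 898 CPM) and Enpp6 (810, 588, 270.0 and 378.5 CPM) were lower in COL too. Cspg4 and Olig2 were higher in COL there, on few UMIs, and the other members overlapped between the groups. How many of all genes differed without overlap in these late nuclei was not counted, so nothing particular to the members is drawn from this.

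The call for 9630013A20Rik in committed precursors was kept in 9 of 13 settings, with log2 fold changes from -1.99 to -1.12 and the same direction in all. It was lost without NS replicate 2 (log2 fold change -1.38, edgeR adjusted p = 0.0720), under the strict gate (-1.51, 0.162), with stages from clusters (-1.12, 0.0731) and after thinning (-1.68, 0.149). Pcdh17, a protocadherin gene that contains 9630013A20Rik on the other strand, was at 544, 966, 275 and 226.7 CPM in the same nuclei and fell by 1.70 ± 0.35 on the log2 scale (edgeR adjusted p = 0.0174). Whether the counting told the strands apart is not given in the sources used here, so the 2 genes cannot be separated with certainty. In mature oligodendrocytes Pcdh17 was at 166, 115, 105 and 88.9 CPM (log2 fold change -0.43 ± 0.20, edgeR adjusted p = 0.149). The 12 neuron markers summed to 1265, 1150, 2622 and 2533 CPM in committed precursors and were higher in COL. The stage markers differed as well. The 12 committed markers were at 9791, 8083, 7880 and 7868 CPM and lower in COL. The 10 precursor markers were at 8969, 5823, 10167 and 12090 CPM and higher in COL, and the 15 mature markers at 14191, 15928, 13193 and 13109 CPM and lower in COL. The part of these markers in the change of 9630013A20Rik was not tested.

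**Figure D4:**
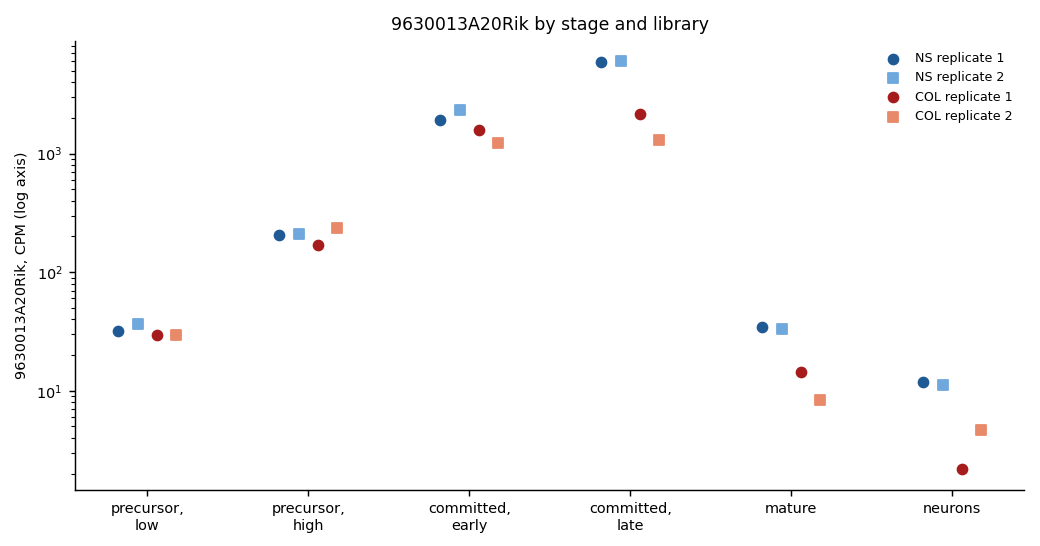
The level of 9630013A20Rik in CPM (log axis) is drawn for each library in the 5 steps of the lineage and in neurons. The NS and COL points overlap or lie close together in precursors, and the NS points are above the COL points from the early committed step on, in neurons too.

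The other committed-stage genes did not pass. Enpp6 was at 998.5, 691, 666 and 633 CPM (log2 fold change -0.47 ± 0.29, edgeR adjusted p = 0.444), and Bmp4 at 149, 71.9, 62.8 and 86.0 CPM (-0.65 ± 0.37, edgeR adjusted p = 0.398). Bcas1 was at 3489, 2410, 3445 and 3672 CPM, so the difference seen in precursors had no counterpart past the threshold in committed ones (log2 fold change 0.18 ± 0.29, edgeR adjusted p = 0.827). Gpr17 was at 146, 46.9, 52.3 and 141 CPM, and its libraries differed more within each group than between the groups.

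In mature oligodendrocytes, 9630013A20Rik passed the threshold and the other members tested did not. Of the 10 genes 9 passed the filter (Bmp4 did not), and of the 17100 genes tested 21.5% passed, 11.9% lower and 9.59% higher in COL. The level of 9630013A20Rik was 34.3, 33.3, 14.5 and 8.34 CPM, and the log2 fold change was -1.48 ± 0.28 (SE, edgeR adjusted p = 0.0102). Its level in neurons was lower in COL too, going from 11.8 and 11.1 to 2.18 and 4.64 CPM, and in a mature nucleus it came to between 0.0549 and 0.122 UMIs. The log2 fold change shrank to -0.25 (edgeR adjusted p = 0.545) with stages from clusters and to -0.74 (edgeR adjusted p = 0.128) after thinning, and these 2 settings ended the call.

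The other 8 genes tested in mature oligodendrocytes had log2 fold changes between -0.997 and 0.42. The lowest was Gpr17, at 9.77, 6.45, 2.16 and 5.36 CPM (-0.997 ± 0.41, edgeR adjusted p = 0.109), and next was Cspg4, at 14.8, 12.6, 3.53 and 9.63 CPM (-0.97 ± 0.38, edgeR adjusted p = 0.0965). Enpp6 (0.20 ± 0.18) and Bcas1 (0.15 ± 0.17), the members with the most UMIs in mature nuclei, had edgeR adjusted p-values of 0.460 and 0.538.

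**Figure D5:**
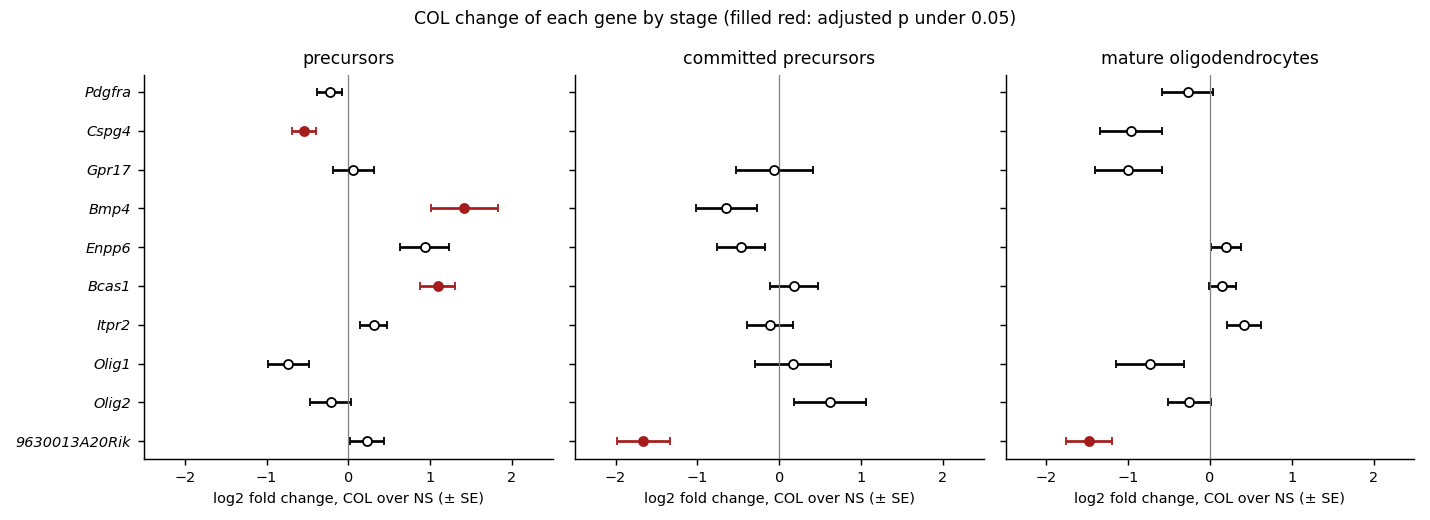
Points are log2 fold changes of COL over NS for each gene in the 3 stages, bars are ± SE, and filled red points passed the edgeR adjusted p of 0.05. A gene with no point did not pass the filter on low counts in that stage. Bcas1 and Bmp4 are to the right and Cspg4 to the left of 0 in precursors, and 9630013A20Rik is to the left in the later stages.

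The change in precursors was then compared with that in mature oligodendrocytes of the same libraries by an interaction term. It passed the test with a higher change in precursors for 3 of 10 genes, where 4.89% of 17113 genes passed, 1.60% with a higher and 3.29% with a lower change in precursors. For Bcas1 the difference of the log2 fold changes was 0.92 ± 0.16 (edgeR adjusted p = 0.0002), and all 12 alternative settings kept the call. For 9630013A20Rik it was 1.79 ± 0.27 (edgeR adjusted p = 3.5e-05), which was lost after thinning (1.04, edgeR adjusted p = 0.128). The fall of this gene in mature oligodendrocytes alone shrank with stages from clusters, as given above. Its UMIs per mature nucleus were below those per neuron in all libraries but COL replicate 1, and above those per astrocyte in every library. For Gpr17 the difference was 1.05 ± 0.26 (edgeR adjusted p = 0.0126), with fewer UMIs per mature nucleus than per neuron in all 4 libraries. Lims2, which overlaps Gpr17, was at 35.4, 28.3, 17.9 and 19.1 CPM in mature oligodendrocytes and fell by 0.69 ± 0.19 on the log2 scale (edgeR adjusted p = 0.0326). The call for Gpr17 was lost without NS replicate 1 (0.95, edgeR adjusted p = 0.134), without NS replicate 2 (1.11, 0.0549), without COL replicate 2 (1.2, 0.0768) and after thinning (1.19, 0.121), with differences of much the same size. Enpp6 (0.77 ± 0.24) did not pass (edgeR adjusted p = 0.0582).

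Genes that act with the members were read from 4 lists. Their counts stand beside shares over all genes of 7.51% higher and 9.10% lower in precursors, 2.28% and 1.5% in committed precursors, and 9.59% and 11.9% in mature oligodendrocytes, and nothing particular to a list is drawn from them. Of the lineage regulators, 19 of 20 were tested in precursors, where 4 were higher and 3 lower in COL, and the median log2 fold change was 0.24 beside 0.02 over all genes. Hes5 and Hes1, Notch targets that hold cells undifferentiated, fell by 2.06 ± 0.43 (edgeR adjusted p = 0.0066) and 1.32 ± 0.38 (0.0326). Hes5 was at 46.5, 23.8, 12.7 and 4.61 CPM. Sox8, a partner of Sox10, fell by 0.83 ± 0.20 (edgeR adjusted p = 0.0140), from 95.1 and 111 to 42.9 and 65.4 CPM. The 4 higher genes, named after their values were seen, were Tcf7l2 (0.75 ± 0.16, edgeR adjusted p = 0.0061), Zeb2 (0.73 ± 0.17, 0.0102), Chd7 (0.65 ± 0.15, 0.0127) and Sox6 (0.58 ± 0.17, 0.0379), which encode 3 transcription factors and, with Chd7, a chromatin remodeller. Hes5 and Hes1 are also transcripts of astrocytes, whose markers were lower in COL precursors as given above. The 10 microglia markers summed to 98.7, 120, 158 and 252 CPM in precursors and, like the macrophage markers, were higher in COL. The part of RNA from other cells in the 4 higher genes was not tested.

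Among 14 lineage regulators tested in committed precursors, 1 passed, with a higher level in COL, and the list had a median log2 fold change of 0.01 beside 0.001 over all genes. That gene was Nkx2-2, a factor that promotes the step to the myelinating cell. It was at 65.8, 37.5, 143 and 156 CPM, a log2 fold change of 1.43 ± 0.35 (edgeR adjusted p = 0.0355). In mature oligodendrocytes 4 of 20 were higher and 3 lower, with a median of 0.17 beside 0.001. Sox5 (49.3, 34.4, 122 and 81.9 CPM) and Sox6 (24.2, 20.0, 39.3 and 40.2 CPM), which keep precursors undifferentiated, were higher by 1.40 ± 0.25 and 0.94 ± 0.18 (edgeR adjusted p = 0.0087 and 0.0105). Neurons carry Sox5 too, and the 12 neuron markers in mature nuclei were at 1913, 1556, 3682 and 2689 CPM. Hes5 was lower there by -2.32 ± 0.43 (edgeR adjusted p = 0.0098).

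Of the growth factor and inhibitory receptors and ligands, 17 of 21 were tested in precursors, with 2 higher, 2 lower and a median log2 fold change of -0.14. Fgfr2, a fibroblast growth factor receptor, fell by 1.06 ± 0.21 (edgeR adjusted p = 0.0043), from 266 and 312 to 97.2 and 164 CPM. Notch1 rose by 0.73 ± 0.18 (edgeR adjusted p = 0.0163), and Adora1, an adenosine receptor, fell by 0.69 ± 0.21 (edgeR adjusted p = 0.0412). In committed precursors 1 of 10 passed, and it was lower. This was Pdgfa, the ligand of the receptor that Pdgfra encodes, at 143, 134, 62.8 and 33.9 CPM (log2 fold change -1.65 ± 0.37, edgeR adjusted p = 0.0262), and the list's median there was -0.10. In mature oligodendrocytes 2 of 20 were higher and 2 lower, with a median of -0.09. Chrm3, a muscarinic receptor that neurons also carry, rose by 1.33 ± 0.17 (edgeR adjusted p = 0.0042), Notch1 by 1.19 ± 0.26 (0.0158), and Fgfr3, an astrocyte transcript as well, fell by 1.77 ± 0.37 (0.0140).

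Of the BMP signalling genes, 14 of 22 were tested in precursors, where 2 passed, both higher, and the median log2 fold change was 0.13. Both code for steps after the ligand. Acvr1, a type I receptor of BMP ligands, was at 79.6, 83.4, 124 and 117 CPM (0.64 ± 0.17, edgeR adjusted p = 0.0207), and Smad1, a factor that the receptors phosphorylate, at 63.0, 75.6, 113 and 107 CPM (0.74 ± 0.18, edgeR adjusted p = 0.0140). In committed precursors 1 of 7 passed and was higher, again Acvr1, at 26.9, 34.4, 146 and 88.6 CPM (1.81 ± 0.41, edgeR adjusted p = 0.0285), with a list median of 0.05. In mature oligodendrocytes 2 of 18 were higher and 1 lower, with a median of 0.20. Acvr1 rose by 0.69 ± 0.18 (edgeR adjusted p = 0.0290) and Smad1 by 0.64 ± 0.18 (0.0386), while Id4, an inhibitor of helix-loop-helix factors that astrocytes carry too, fell by 1.37 ± 0.29 (0.0145).

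Of 9 genes listed as relatives of the members, by family or by name only, 6 were tested in precursors, 2 in committed precursors and 7 in mature oligodendrocytes. In precursors 1 was lower, the proteoglycan Cspg5, listed for the name it shares with Cspg4. Cspg5 fell by 0.61 ± 0.16 (edgeR adjusted p = 0.0191), and the list's median was -0.41. In committed precursors the median of the 2 tested was 0.81. In mature oligodendrocytes 2 were lower, Cspg5 by -0.79 ± 0.17 (edgeR adjusted p = 0.0157) and Enpp5, a relative of Enpp6, by -0.75 ± 0.18 (0.0225), with a median of -0.31.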

How the data were processed

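Nuclei of thalamus were run on the 10x Chromium system (3′ kit), and the authors counted UMIs with Cell Ranger 1.2.0 on mm10, per the methods and the submitters' processing notes. The authors deposited raw UMI counts per gene and barcode for each library, with no normalization. Barcodes with more than 50 genes and under 5% mitochondrial UMIs were kept, no doublet caller was run, and no free RNA was removed. The library was the replicate. The 10 genes and all lists were chosen with earlier results of these data known.

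Counts were scaled to 10000 per nucleus and log-transformed, and each marker's value was divided by its SD, capped at 5 and averaged. Precursors needed a precursor score of 2 with a mature score under 1, committed precursors a committed score of 1.5 with a precursor score under 2.2, and mature oligodendrocytes a mature score of 1.2 with the others under 1.2 and 1.5. Each score had to lead every class outside the lineage by 0.5 with 3 markers detected. These thresholds were set after the marker scores, not the 10 genes, had been seen.

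UMIs were summed per library and stage and tested with edgeR 4.0.16 (TMM, filterByExpr, quasi-likelihood F test, Benjamini-Hochberg over all genes tested, threshold 0.05). The interaction fit had the library as a block. For shares of nuclei the exact permutation test (two-sided) was used. Alternatives were DESeq2 1.42.0, RLE size factors, no filter, a replicate block, each library left out, a strict gate (lead of 1), clusters of lineage nuclei computed without the 10 genes, at least 500 genes per nucleus and thinning to 2000 UMIs. Leaving out dividing nuclei and using only low-score precursors were chosen after seeing the data. From each related list at most 3 genes per stage were named, those past the threshold with the largest change and no overlap in CPM, and 4 more lineage regulators in precursors were named after their values were seen. Gene positions are from GENCODE M21 (GRCm38). A fit without 1 library leaves 1 library in that group, which is assumed to vary like the pair of the other group, so a call lost there is no measure of stability. The fits were also run on simulated sums with known changes, and the outcome is not reported here. Software also included R 4.3.3 and Python 3.11.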

Additional observations from a re-analysis of the deposited data

Results flagged for a closer look

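For 3 of the 10 genes the COL change in precursors differed from that in mature oligodendrocytes by the interaction test, which 4.89% of all genes passed, 1.60% with a higher change in precursors as here. The difference of the log2 fold changes was 0.92 for Bcas1, 1.05 for Gpr17 and 1.79 for 9630013A20Rik. For Bcas1 the change was 1.09 in precursors and 0.15 in mature oligodendrocytes, and for 9630013A20Rik 0.23 and -1.48. The fall of 9630013A20Rik in mature oligodendrocytes shrank with stages from clusters and after thinning. Its UMIs per mature nucleus were above those per neuron in COL replicate 1 alone, and above those per astrocyte in every library. For Gpr17 the change was 0.06 in precursors and -0.997 in mature oligodendrocytes, neither past the threshold. The interaction call was lost in 4 of 12 other settings for Gpr17 and after thinning for 9630013A20Rik.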

How the results depend on the processing

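The direction was the same as in the main setting for Bcas1, Bmp4 and Cspg4 in precursors and for 9630013A20Rik in committed precursors and mature oligodendrocytes under every alternative run. The number of genes with their highest level in committed precursors, 6, was the same with at least 500 genes, the strict gate and the clusters, but under the clusters Olig1 took the place of Gpr17. The counts of genes past the threshold moved more. In precursors the count of 2117 became 738 with DESeq2 and 767 after thinning, and with 1 library left out it lay between 995 (without NS replicate 1; 1228 without NS replicate 2) and 2844. In committed precursors the 202 genes became 61 with DESeq2, 383 with no filter, 16 under the strict gate, 49 with clusters and 1 after thinning, and with 1 library left out it lay between 152 (without NS replicate 2) and 321 (without COL replicate 2). In mature oligodendrocytes the 3680 became 2100 without NS replicate 2 and 6527 without COL replicate 2. For the interaction the 837 became 500 after thinning and lay between 411 (without NS replicate 2) and 824 (without COL replicate 1) with 1 library left out. The share of precursors (0.140 points higher in COL) turned to -0.166 after thinning and -0.431 without COL replicate 2 (0.710 without COL replicate 1), that of committed precursors (0.0725) to -0.0186 and -0.198 under the strict gate and the clusters, and that of mature oligodendrocytes (-2.63) to 3.35 without NS replicate 2 (-8.60 without NS replicate 1). The cause was not tested.

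The labels number the libraries of both groups 1 and 2 and name no shared batch, so the numbers were not taken as pairs. Deviations of same-numbered libraries correlated at 0.12, -0.06 and 0.21 in the 3 stages. With 2 libraries per group this is a single contrast in each stage, which cannot decide whether the libraries pair. With a replicate block the counts were 2632, 210, 5459 and 1118. The block added Enpp6 (edgeR adjusted p = 0.00894) and Olig1 (0.0101) to the genes called in precursors, Cspg4 (0.0013), Olig1 (0.0001) and Gpr17 (0.0118) to those called in mature oligodendrocytes, all 3 lower in COL, and Enpp6 (0.0191) to the interaction.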
